A study of Elaeis guineensis with 9 samples.

Results

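Leaf transcripts of oil palms in the middle oil yield class were compared with those of palms in the low and the high class as 1 set. The 3 medium yield libraries of the 9 in the series were each set against the mean of the low and the high library of the same population. The species is Elaeis guineensis, the African oil palm, and per the labels all palms were of the Tenera cultivar, were 7 years old, stood in the same field and had yield records over 4 years. Leaf tissue came from frond 17 in every group. The treatment field of the labels holds the yield class of each library and names no other treatment. The medium, low and high classes each held 1 library of the population Deli x LaMe, 1 of Deli x Yangambi and 1 of Deli x SP540. The classes were formed from palms chosen within each population. Whether 1 palm or a pool stands behind each library is not stated, nor is any extraction or sequencing batch, so the spread that enters the p-values is that of these libraries and may be technical, and batch effects cannot be told apart from those of yield. Of the 51490 transcript rows in the deposited table, 30576 (59.4%) had at least 1 TPM (a transcript's share of the library, corrected for transcript length) in 3 or more of the 9 libraries, and these were compared.

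Tenera is the thin-shelled hybrid form of the oil palm that is planted for oil, and it arises from a cross of thick-shelled Dura with shell-less Pisifera palms. Fronds are numbered from the youngest open leaf, so a frond of a fixed number is a leaf of like developmental age in every palm, and it is the usual leaf for judging the nutrient status of a mature palm. One gene can give several transcript models that share exons, and reads from the shared stretches are divided among the models by estimation, so that the level of 1 model can differ between libraries while the summed level of its gene does not.

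The number of rows at 1 TPM or more was 26613, 26745 and 28320 in the medium libraries of LaMe, Yangambi and SP540, against 26435, 26783 and 27048 in the low libraries and 26991, 26390 and 27167 in the high libraries. The medium SP540 library held the most, while the other medium libraries lay within the range of the low and high ones. The medium libraries averaged 27226.0 rows and the low and high libraries 26802.3, a difference of 423.7 ± 695.3 rows (SD over 3 populations), which an exact permutation of the yield labels within populations did not place apart (two-sided p = 0.222, smallest possible p = 0.037). The difference was 29.2 rows without the SP540 population. Sequencing depth cannot be read from TPM and is unknown here. The 10 most abundant rows held 11.93 to 14.94% of the TPM of a library.

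No transcript row was called in the medium class. At an adjusted p under 0.05 in limma, a linear model fitted across all 30576 rows with population and yield class as terms, 0 rows (0.0%) passed, and the lowest adjusted p was 0.99995. At an unadjusted p under 0.05 there were 1098 rows (3.59%), of which 630 (2.06%) were higher and 468 (1.53%) lower in medium than in low and high. The same contrast for the low class and for the high class, which share these libraries, also gave 0 calls (0.0% each), with 1200 (3.92%) and 1510 (4.94%) rows at an unadjusted p under 0.05. Without the low Yangambi library 1 row was called for low, and still 0 for medium and for high. The median row had a standard error of 0.297 and, before adjustment, a 95% half-width of 0.702 on the log2(TPM + 1) scale. A smaller difference in such a row could not be told from 0 with these libraries. A call after adjustment over all rows needs a difference larger than that half-width. Differences of more than 1 in size were seen in 1240 rows (4.06%), 694 of them higher and 546 lower in medium. Rows of low mean level held more of the unadjusted p-values under 0.05, at 4.32% of rows between 1 and 5 TPM, 2.52% between 20 and 100 TPM and 1.96% above 100 TPM. Non-coding models were at 4.44% (158 of 3555) and mRNA models at 3.48% (940 of 27021).

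The rows described next were taken by their level, direction and p or size. They have a mean of at least 5 TPM and a medium library above both, or below both, the other libraries of its population in all 3 populations, and they were taken in order of the limma p or, for rows whose medium libraries lie wholly outside the range of the other 6, in order of the size of the difference. Of the 16691 tested rows with that mean, 498 that pair with a gene and 163 that do not were higher in medium in this way. In the same way 230 and 86 were lower. A fixed number was taken from the top of each order, which gave 31 rows, 17 higher and 14 lower in medium. These 2 numbers follow from that choice and do not show a balance of directions. Of the 31 rows, 27 belonged to 26 genes of the RefSeq gene table of assembly EG11. None of the 31 passed (limma adjusted p = 0.99995 for each). Their ranks by p among all rows ran from 6 to 598, since rows of a lower mean level with smaller p-values fall outside the rule, and their differences were chosen by their p or size and are not an unbiased sample of the table. The gene table gives no product descriptions, so the genes are named by their identifiers, and beyond the class of 2 non-coding genes nothing is said of what they do. In leaf samples of mixed cells, fewer cells of a type and less RNA per cell cannot be told apart.

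Among the 31 rows, 8 came from genes with which only 1 row of the table was paired, called single-model here. Only 61.6% of all rows were paired with a gene, so an unpaired row may be a further model of such a gene and share its reads. The same limit holds for the gene sums and shares given below. The most abundant was LOC105035139 (XM_010910577.1), with 353, 414 and 327 TPM in the medium libraries of LaMe, Yangambi and SP540, against 182, 191 and 243 TPM in the low libraries and 241, 216 and 262 TPM in the high libraries. All 3 medium libraries were above all 6 others, with means of 365 ± 45.0 TPM in medium and 222 ± 31.8 TPM in low and high together (SD, n = 3 and 6). Its log2 difference was 0.72 with a standard error of 0.138 (limma unadjusted p = 0.00123, rank 20 of all rows). LOC105045203 (XM_010923380.3) had 25.2, 38.7 and 38.4 TPM in medium, against 19.2, 19.4 and 26.6 TPM in low and 16.6, 19.4 and 21.5 TPM in high. Its medium LaMe library lay below the low SP540 one, so the groups overlap across populations, while within each population medium was the highest (log2 difference 0.70, standard error 0.135). The span of this gene overlaps that of another gene in EG11. Exons were not compared and no statement on strand is given, so whether the pair shares reads is unknown. The third row higher in medium was a small nucleolar RNA model, LOC114912913 (XR_003798902.1), with 29.4, 19.1 and 38.1 TPM in medium, against 14.0, 15.5 and 9.04 TPM in low and 2.74, 7.28 and 15.5 TPM in high. As a class, small nucleolar RNAs guide the chemical modification of ribosomal RNA. The medium libraries did not overlap the others, and the log2 difference was 1.47 with a standard error of 0.434, the largest of these 8 rows. It too overlaps another gene in EG11. The libraries were TruSeq mRNA libraries, and how well they capture small nucleolar RNAs was not tested, so its level is uncertain.

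Another 5 single-model rows were lower in medium. LOC105059916 (XM_010943432.2) had 32.4, 20 and 29.5 TPM in medium, against 44.1, 38.4 and 40.2 TPM in low and 39.6, 33.6 and 45.3 TPM in high. LOC105041934 (XM_010919009.3) had 34.0, 29.9 and 28.3 TPM in medium, against 50.1, 39.8 and 35.5 TPM in low and 48.7, 43.1 and 53.4 TPM in high. In both, the 3 medium libraries lay below the other 6, with log2 differences of -0.56 (standard error 0.131) for the first and -0.53 (0.13) for the second. LOC105052124 (XM_010932835.3) had 3.8, 1.79 and 4.61 TPM in medium, against 7.91, 9.51 and 10.5 TPM in low and 5.56, 6.48 and 5.49 TPM in high. This row was low in medium and intermediate in high, and its low libraries held the 3 highest values (log2 difference -0.99, standard error 0.264). The long non-coding model LOC109505078 (XR_003799108.1) had 4.31, 5.23 and 6.3 TPM in medium, against 9.67, 17.3 and 8.3 TPM in low and 19.6, 12.7 and 6.6 TPM in high, a log2 difference of -1.01 with a standard error of 0.331. Its SP540 libraries lay close together, and the distance came from LaMe and Yangambi. LOC105033859 (XM_010908815.3) had 12.9, 16.3 and 9.47 TPM in medium, against 20, 25.3 and 15 TPM in low and 15.3, 29.8 and 14.2 TPM in high. Yangambi was the population with the highest level in each class for that gene, so the groups overlap although medium was the lowest within each population (log2 difference -0.57, standard error 0.148). The plot of the 8 single-model genes shows these values by population.

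**Figure D1:**
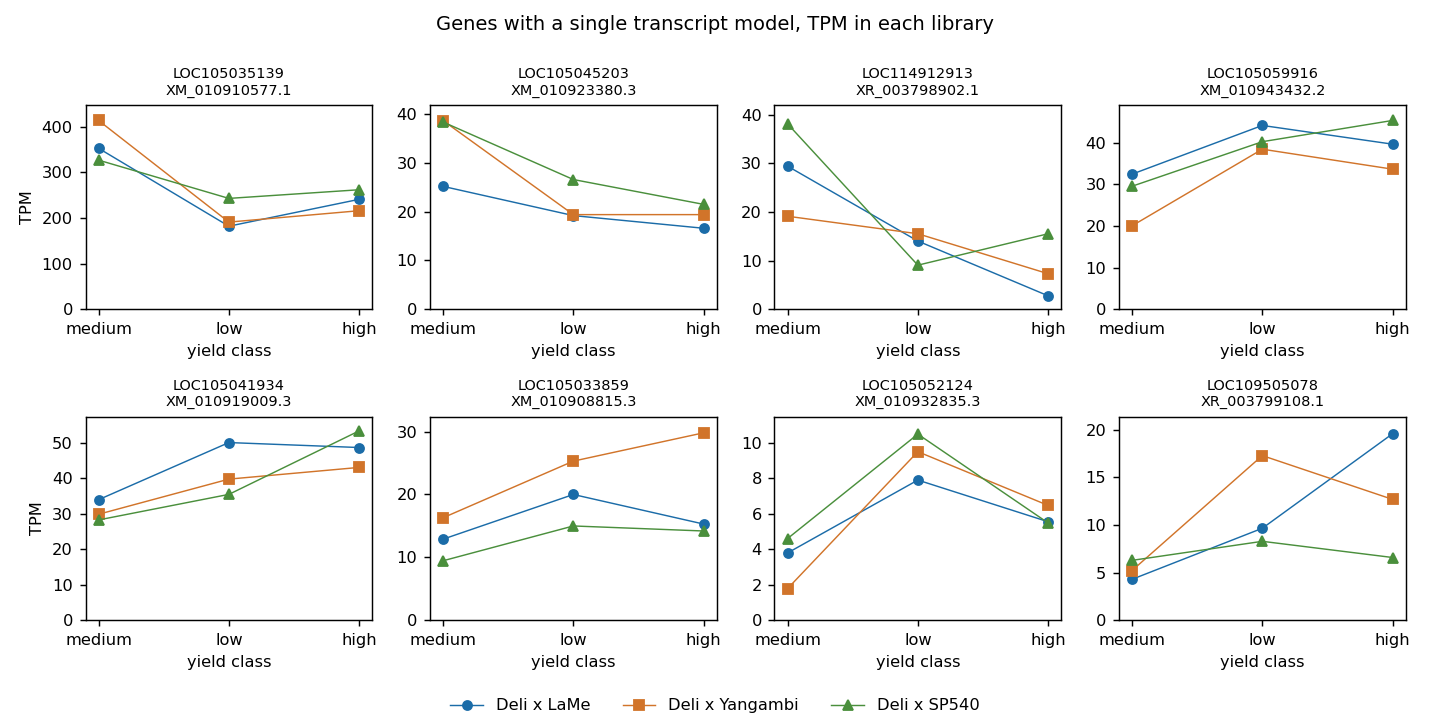
TPM (y axis, from 0) in the medium, low and high yield library (x axis) for the 8 named rows whose gene has 1 paired row. Each library is 1 point, and a line joins the libraries of 1 population. In LOC105035139 the medium libraries sit between 327 and 414 TPM and the others between 182 and 262 TPM, and in LOC105059916 they sit between 20 and 32.4 TPM and the others between 33.6 and 45.3 TPM.

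The other 19 paired rows belonged to 18 genes with more than 1 transcript model, and here the row and its gene often differed. The difference of the summed gene was under 0.5 of the row's own difference in 13 of the 19, and had the opposite sign in 2. The median size of the difference was 1.03 for the rows and 0.17 for their genes. The rows were chosen for their own difference, and how far that choice sets the gap between row and gene was not tested.

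The row with the smallest p of the whole table was 1 of the 2 models of LOC105058154. Its mean is under 5 TPM, so it falls outside the rule above and was chosen after its values were seen. XM_029268392.1 had 6.2, 9.9 and 9.9 TPM in medium, against 2.13, 2.92 and 3.0 TPM in low, and was listed at 0 in all 3 high libraries (log2 difference 2.31, standard error 0.27, limma unadjusted p = 5.43e-05, adjusted p = 0.99995). The medium libraries were above the other 6, and the low libraries above the high ones. The second model, XM_010940982.3, had 15.3, 10.9 and 8.49 TPM in medium, against 34.9, 23.3 and 18.4 TPM in low and 19.2, 12.4 and 14.4 TPM in high, with a log2 difference of -0.73 (standard error 0.147). As a share of the gene's TPM, XM_010940982.3 took 71.1, 52.4 and 46.2% in medium, against 94.3, 88.9 and 86.0% in low and 100% in each high library. The gene as a whole had 21.5, 20.8 and 18.4 TPM in medium, against 37.1, 26.2 and 21.4 TPM in low and 19.2, 12.4 and 14.4 TPM in high, a log2 difference of -0.02 (standard error 0.143). Within each population the summed gene was thus above high in medium and below low. The share of XM_010940982.3 in the 3 medium libraries lay below that in the other 6, in a gene picked for its smallest p.

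The split of a gene's TPM was therefore also tested across the table, as the log2 ratio of a row to the rest of its gene, with 1 TPM added to both. This test was chosen after the data were seen. In 9315 rows of 3815 genes, limma called 0 rows at an adjusted p under 0.05 for medium, and 425 rows (4.56%) had an unadjusted p under 0.05, beside 390 (4.19%) for low and 516 (5.54%) for high. The lowest adjusted p for medium was that of XM_010940982.3 at 0.31758, with a log2 ratio difference of -3.04 and a standard error of 0.389. The other model of LOC105058154, XM_029268392.1, has the same difference with the sign turned round, since the gene has 2 models, but as a row of its own it had a standard error of 0.519 and a limma adjusted p of 0.78562.

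Of the 19 named rows of genes with several models, 12 took a share in medium that was above both, or below both, the low and the high library in every population. In 6 of them the share also lay outside the range of all 6 low and high libraries, namely in LOC105058154, LOC105060895, LOC105055908, LOC105032565, LOC105039410 and LOC105036172. These rows were chosen for their own level, which enters the share, so the counts of 12 and 6 follow in part from that choice. No such count was made over all rows of genes with several models, and the counts are a description only. In LOC105050177, XM_010930099.3 had 38.4, 39.2 and 28.5 TPM in medium, against 27.2, 14.8 and 9.04 TPM in low and 23.0, 18.6 and 6.12 TPM in high. All medium libraries were above all others, and the log2 difference was 1.20 with a standard error of 0.242 (limma unadjusted p = 0.00166). The second model of the gene, XM_010930098.3, held most of its TPM and had a log2 difference of -0.20, and the sum of both had 0.06 (standard error 0.134). The share of XM_010930099.3 was 34.7, 30.1 and 18.1% in medium, and in low and high it lay between 3.88 and 19.5%. The medium SP540 library thus lay below the top of the others' range, although it was above the 6.77% of low SP540 and the 3.88% of high SP540.

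LOC105060895 has 7 models, and 2 of them were named in opposite directions. XM_010944756.3 had 10.5, 11.3 and 18.7 TPM in medium, against 21.4, 18.6 and 28.0 TPM in low and 25.5, 27.8 and 33.2 TPM in high (log2 difference -0.90, standard error 0.136, limma unadjusted p = 0.000275). Its medium SP540 library overlaps the low Yangambi one in TPM. Its share of the gene, however, was 18.3 to 23.7% in medium and 28.3 to 49.4% in the others, without overlap. XM_010944755.3 had 17.7, 12.8 and 15.4 TPM in medium, against 8.2 TPM in low Yangambi, 12.4 TPM in low SP540, 3.71 TPM in high Yangambi and 11.4 TPM in high SP540, and it was listed at 0 in the low and the high LaMe library. The gene summed over its models had a log2 difference of 0.09 (standard error 0.134), much smaller than that of either row.

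In LOC105032565, XM_010907034.3 had 1.53, 1.53 and 2.94 TPM in medium, against 6.39, 6.38 and 4.67 TPM in low and 8.2, 10.9 and 4.98 TPM in high. The medium libraries lay below all others, with a log2 difference of -1.39 and a standard error of 0.31. It took 13.4 to 19.2% of its gene in medium and 35.1 to 97.8% in low and high. Another model, XM_010907038.3, had 5.83, 8.46 and 8.75 TPM in medium and between 2.48e-05 and 7.24 TPM in the low and high libraries, and the gene sum had a log2 difference of -0.04. The plot of shares shows how the models of these 4 genes divide the gene in each library.

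**Figure D2:**
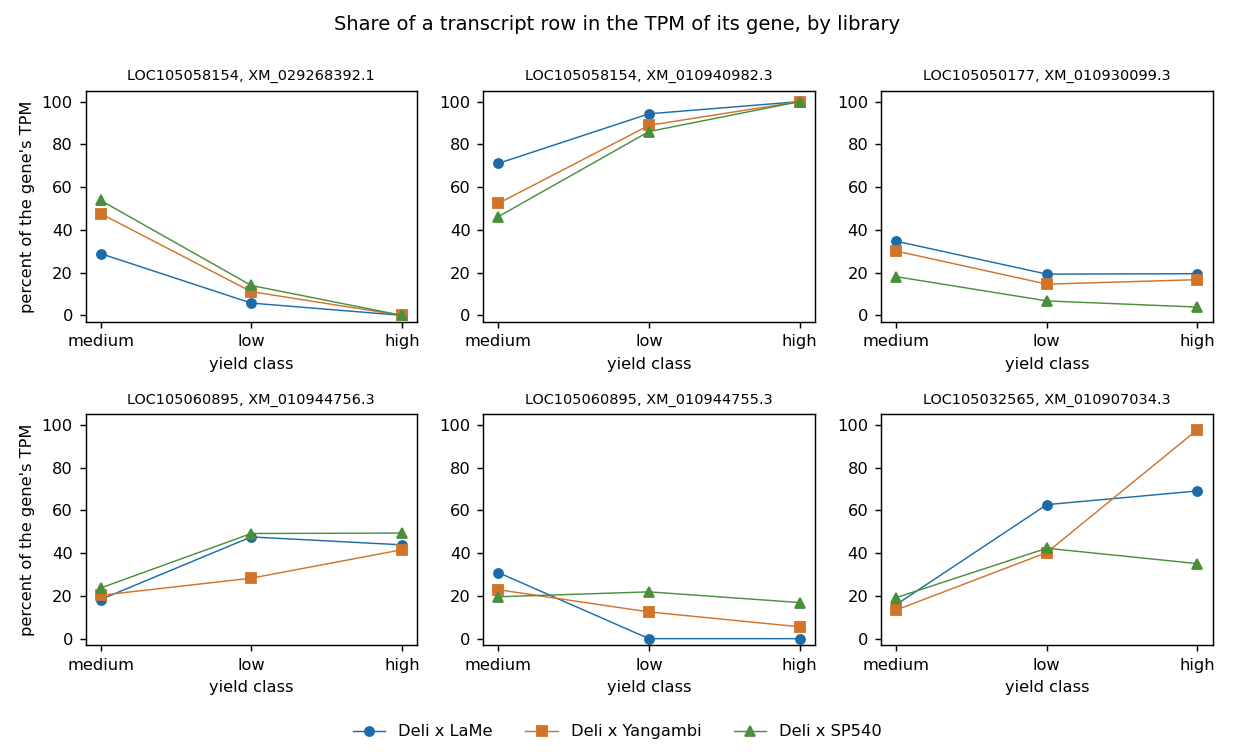
Share of a transcript row in the summed TPM of its gene, in percent (y axis), in the medium, low and high library (x axis) of each population, for 6 rows of 4 genes. XM_010940982.3 lies between 46.2 and 71.1% in medium and between 86.0 and 100% elsewhere, XM_010907034.3 between 13.4 and 19.2% in medium and between 35.1 and 97.8% elsewhere, while the medium SP540 library of XM_010930099.3 and that of XM_010944755.3 lie within the range of the others.

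In 6 genes the summed gene kept more than 0.5 of the difference of its row. LOC105042161 was named through XM_010919270.3, with 46.3, 39.1 and 34.1 TPM in medium, against 38, 29.8 and 19.0 TPM in low and 24.0, 16.2 and 17.0 TPM in high. Medium was the highest in every population and high the lowest. The log2 difference was 0.76 for the row and 0.69 for the gene (standard error 0.139). LOC105032343 was lower in medium both in its row XM_010906775.3, at 4.57, 5.71 and 4.65 TPM in medium, against 13.5, 17.5 and 7.68 TPM in low and 11.6, 8.83 and 10.3 TPM in high, and in its sum, with log2 differences of -1.03 and -0.76. LOC105055908 was lower in XM_029267822.1, at 6.76, 4.78 and 4.96 TPM in medium, against 9.57, 13.4 and 14.5 TPM in low and 9.93, 17.3 and 15 TPM in high. Its row differed by -1.12 and its gene by -0.64 on the log2 scale, and in both LOC105032343 and LOC105055908 the named row did not overlap between the groups. For LOC105042043 the values were 0.95 and 0.60, for LOC105053522 they were -0.87 and -0.47, and for LOC105049458, named through XM_029265867.1, they were 0.55 and 0.30.

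The remaining named rows of genes with several models had larger differences than their genes. XM_010932384.3 of LOC105051784 had a log2 difference of 1.98, XM_010915728.3 of LOC105039410 had 2.26, XM_029262150.1 of LOC105036172 had 1.67 and XM_010938199.3 of LOC105056124 had 1.57. Their gene sums had 0.11, -0.15, 0.14 and 0.09. XM_029262150.1 held at most 6.28% of its gene in medium and XM_010938199.3 at most 11.6%. XM_010932384.3 held 5.31, 39.4 and 11% in medium, and in low and high it held 18.5 and 20.2% in Yangambi and at most 1.98% in LaMe and SP540. XM_010915728.3 was a larger part of its gene, at 44.0, 42.2 and 34.8% in medium, and at 23.1, 0 and 13.9% in low and 14.5, 8.25 and 0% in high. XM_029266106.1 of LOC105046502, XM_029268508.1 of LOC105058648, XR_833467.3 of LOC105053521 and XM_010927723.3 of LOC105048422 had log2 differences of 0.86, 1.12, 0.84 and -0.92, with gene sums of 0.17, 0.36, 0.23 and -0.26. Of the 26 genes named here, 6 overlap another gene in EG11, namely LOC105039410, LOC105045203, LOC105046502, LOC105048422, LOC105053521 and LOC114912913.

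Another 4 named rows pair with no gene of the table. XM_010941715.3 had 3.72, 40.4 and 4.33 TPM in medium, was listed at 0 in all 3 low libraries, and in high was listed at 0 in LaMe and SP540 and had 1.02 TPM in Yangambi. Its medium Yangambi library stood far above the other medium ones. XM_029266328.1 had 14.8, 19.2 and 4.7 TPM in medium and reached 0.19 TPM in low and 8.14 TPM in high, so that the medium SP540 library overlapped the high ones. XM_029263518.1 and XM_029263290.1 were lower in medium, with log2 differences of -2.80 (standard error 0.456) and -1.10 (0.204).

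Counted over all rows, the medium library was the highest of its population in every population for 1224 rows (4.0%) and the lowest for 567 rows (1.85%). The low class had the opposite balance, with 665 rows (2.17%) highest and 1219 (3.99%) lowest, and high had 1212 (3.96%) and 1056 (3.45%). The surplus of rows with medium highest depended on the scaling of the libraries. The median of the tested rows on the log2(TPM + 1) scale was 2.9751 in the medium SP540 library and 2.7392 to 2.842 in the other 8, and the median difference of medium from low and high over all rows was 0.041. When every library was scaled to the same median, 834 rows were highest and 1087 lowest in medium, so the balance turned round, and after quantile normalization 891 were highest and 839 lowest. The split of the rows at an unadjusted p under 0.05 turned likewise, to 503 higher and 601 lower after scaling to the same median and to 517 higher and 603 lower after quantile normalization. Rows whose 3 medium libraries all lay above the other 6 numbered 274 (0.896%) and those below 129 (0.422%), against 148 (0.484%) and 302 (0.988%) for low and 312 (1.02%) and 292 (0.955%) for high. After scaling to the same median these were 198 (0.648%) and 187 (0.612%) for medium. For low they were then 214 (0.7%) and 211 (0.69%), and for high 331 (1.08%) and 307 (1.0%), so medium had the fewest on both sides. The plot of counts by class shows the 3 scalings.

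**Figure D3:**
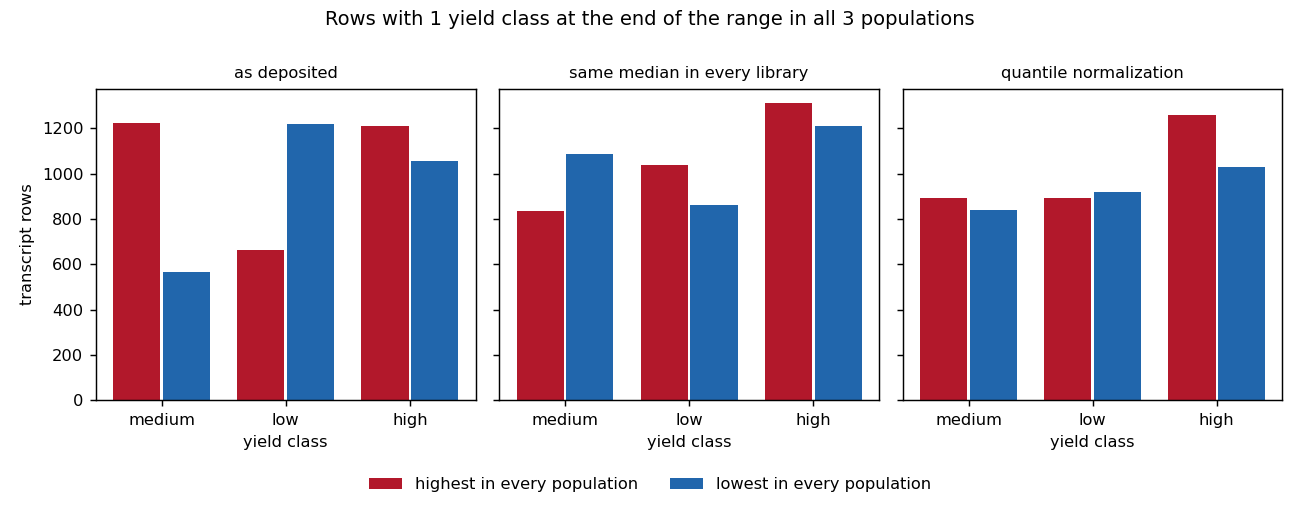
Number of transcript rows (y axis, from 0) in which a yield class (x axis) was the highest or the lowest of its population in all 3 populations, as deposited, after scaling to the same median and after quantile normalization. For medium the 2 bars stand at 1224 and 567 as deposited, at 834 and 1087 after scaling and at 891 and 839 after quantile normalization.

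The difference of medium from low and high in 1 population said little about that in another. Across the 30576 rows, which share a library within each population and are not independent, Pearson's r of the difference was 0.00389 between LaMe and Yangambi, -0.0275 between LaMe and SP540 and -0.0238 between Yangambi and SP540. Spearman's rho was 0.00274, -0.0447 and -0.0419. Among the 11858 rows with a mean of at least 10 TPM, r was -0.0184, -0.0761 and -0.0673. The populations share no library in this comparison, and these values are a description with no test. Within single populations differences were common, with 12.3% of rows beyond 1 in size on the log2 scale in LaMe, 15.8% in Yangambi and 14.6% in SP540. In LaMe these split into 1874 higher and 1884 lower and in Yangambi into 2502 and 2328, while in SP540 there were 2792 higher and 1662 lower. A total of 9399 of the 30576 rows passed that size in at least 1 population. In all 3 populations 82 were higher by more than 1 and 56 lower by more than 1. A further 408 rows passed that size in all 3 populations but in mixed directions.

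**Figure D4:**
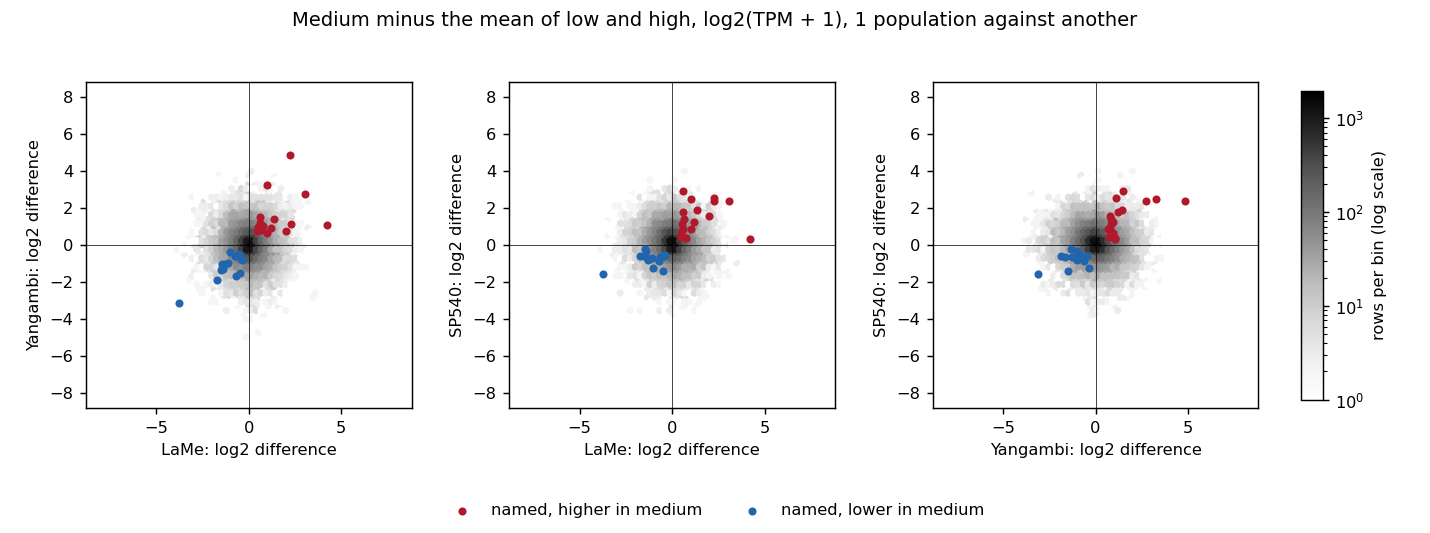
Difference of medium from the mean of low and high on the log2(TPM + 1) scale in 1 population (x axis) against another (y axis), with shading for the number of rows per bin on a log scale and points for the 31 named rows. The cloud is round in all 3 panels, with Pearson's r between -0.0275 and 0.00389, and the named rows lie in 2 corners because they were chosen for a shared direction.

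Single libraries held the largest differences, and these genes were chosen after their values were seen as the ends of the range in a population, at a mean of at least 20 TPM. LOC105039460 (XM_010915612.3) had 7.14, 971 and 12.6 TPM in medium, against 7.8, 5.53 and 3.78 TPM in low and 35.3, 6.48 and 4.45 TPM in high. Its high value stood in the medium Yangambi library alone. LOC105053635 (XM_010934886.3) had 661, 1.68 and 552 TPM in medium, against 620, 435 and 581 TPM in low and 1110, 686 and 489 TPM in high, so the same library was the low one. LOC105035813 (XM_010911511.2) had 65.5, 3.05 and 275 TPM in medium, against 59.9, 190 and 8.36 TPM in low and 93.6, 221 and 4.21 TPM in high. Medium was far below the others in Yangambi, far above them in SP540 and between them in LaMe. LOC105035449 (XM_029261957.1) had 19.9, 205 and 93.7 TPM in medium, against 201, 111 and 156 TPM in low and 133, 244 and 180 TPM in high, the lowest value being medium LaMe. LOC105035098 (XM_010910509.3) had 29.2, 38.5 and 13.7 TPM in medium, against 10.8 and 14.5 TPM in low Yangambi and SP540 and 42.2, 0.00989 and 31.4 TPM in high, and was listed at 0 in low LaMe, so that its medium LaMe library lay between low and high. LOC105057718 (XM_010940412.3) had 42.2, 24.8 and 5.78e-08 TPM in medium, against 5.21, 9.07 and 68.6 TPM in low and 38.9, 59.5 and 42.3 TPM in high, with the lowest value in medium SP540. None of the 6 was near a call over all 3 populations, with limma unadjusted p-values between 0.0796 and 0.917.

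Genes that carry a name in the gene table showed no difference of medium that the test could tell from 0. There were 31 such genes with rows in the table, of which 21 had 25 tested rows. In limma 0 of the 25 rows were called and 0 had an unadjusted p under 0.05, beside 3.59% of all rows. None was the highest or the lowest in every population. Their log2 differences ran from -0.70 to 0.74 with a median of 0.02, beside 0.04 over all rows, and 17 were above and 8 below 0.

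The 3 genes in the list drawn up under the heading antioxidant were abundant and near 0 in difference. CAT2, a catalase, which splits hydrogen peroxide into water and oxygen, had 5210, 4200 and 5410 TPM in medium, against 5740, 3460 and 7190 TPM in low and 6400, 3690 and 4470 TPM in high. The groups overlapped and all Yangambi libraries were at the low end (log2 difference -0.02, standard error 0.163). MnSOD, a manganese superoxide dismutase of the mitochondrion, had 128, 172 and 77.1 TPM in medium, against 104, 76.1 and 100 TPM in low and 209, 103 and 199 TPM in high. Medium was the highest in Yangambi and the lowest in SP540, with a log2 difference of -0.04 and a standard error of 0.308. CHAC1, placed in that list by its symbol alone, had a log2 difference of 0.02, and whether it acts as an antioxidant was not tested.

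In lipid and isoprenoid synthesis, 2 genes were tested. GPAT, a glycerol-3-phosphate acyltransferase, which catalyses the entry step of glycerolipid assembly, had 121, 124 and 143 TPM in medium, against 126, 103 and 133 TPM in low and 97.0, 130 and 128 TPM in high. Its values were close in all 9 libraries (log2 difference 0.12, standard error 0.126). The gene dxs, for the entry enzyme of the plastid isoprenoid pathway, was read through 2 rows. The main one, XM_010940551.2, had 6.02, 8.85 and 7.95 TPM in medium, against 0.0547, 4.84 and 4.92 TPM in low and 12.1, 1.95 and 11.6 TPM in high. The medium libraries were close together while low and high were spread around them, and the difference of 0.74 had a standard error of 0.675. The second row, NM_001303573.1, had -0.09.

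AQP, an aquaporin or water channel, had 645, 717 and 455 TPM in medium, against 557, 716 and 688 TPM in low and 472, 559 and 585 TPM in high, with overlap and a log2 difference of 0.01 (standard error 0.156). The 5 rows of the translation genes EF1, EF1B and RPL27 ran from -0.49 to 0.13. ACT1, an actin of the cytoskeleton, had 0.18 (standard error 0.17). PEX13 was among the most even of the named genes, at 328, 351 and 316 TPM in medium, against 314, 308 and 363 TPM in low and 309, 329 and 351 TPM in high (log2 difference 0.01, standard error 0.0993). At the other end, a row of Eg-ProT1, a proline transporter, had a log2 difference of -0.70 (standard error 0.461) at levels of at most 3.41 TPM, and its second tested row had 0.04.

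Of the flower genes of the MADS-box family, transcription factors that set the identity of floral organs, 7 of 8 were not tested. AG2, AGL2-2, AGL2-3, AGL2-5, GLO1, GLO2 and SQUA1 were all under 1 TPM in every library, as were LIP1 and CHI2, and BBM, an embryogenesis factor, was listed at 0 throughout. DEF1, a floral factor of the same family, had 1.08, 5.69 and 4.8 TPM in medium, against 4.08, 2.68 and 4.57 TPM in low and 3.9, 3.29 and 6.23 TPM in high, with a log2 difference of -0.21 and a standard error of 0.384. Of the leaf genes chosen to check the labelled tissue, CAT2 alone could be matched by name, and photosynthesis, starch and clock genes are not analysed here. The plot of the genes with a name gives the difference in each population and over all 3.

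**Figure D5:**
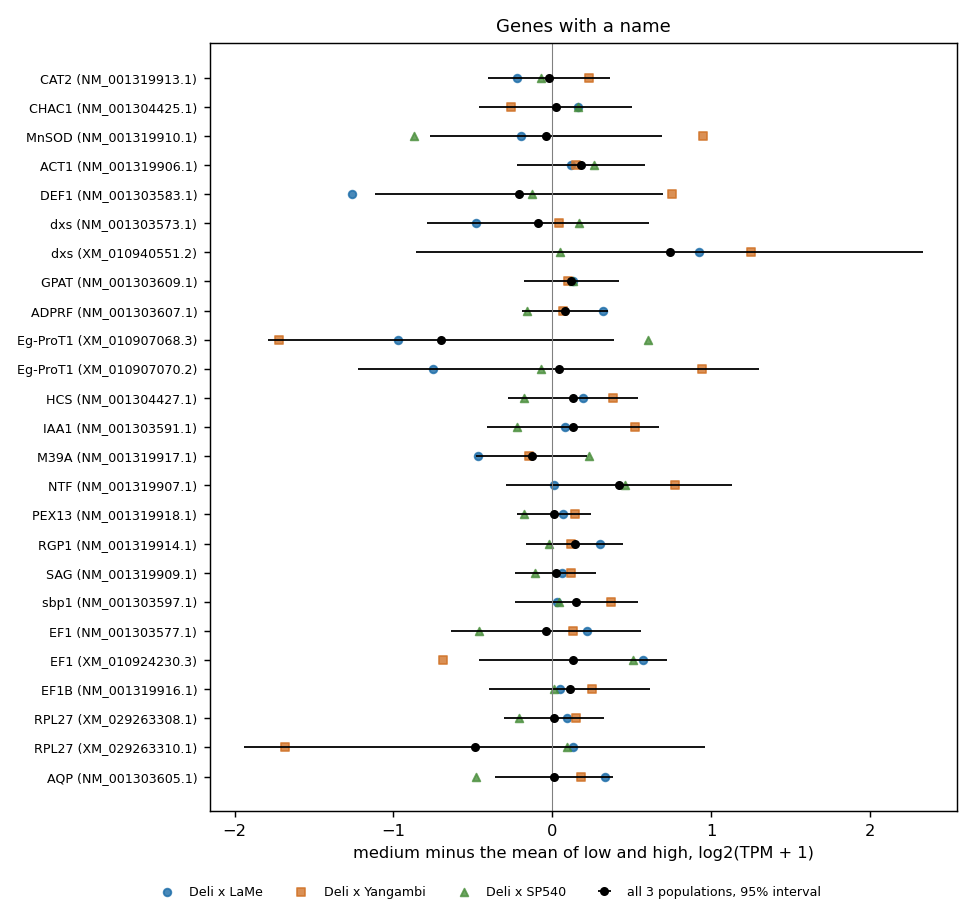
Difference of medium from the mean of low and high on the log2(TPM + 1) scale (x axis) for the 25 tested rows of genes with a name, with black points and bars for the value over all 3 populations and its 95% interval from limma, and coloured points for each population. Every interval spans 0, and the populations fall on both sides of 0 in rows such as MnSOD and DEF1.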

How the data were processed

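Per the labels' protocols, leaf RNA was sequenced from TruSeq mRNA libraries, 9 in all. The authors deposited 1 table of TPM values for RefSeq transcript models, each column summing to the same total, although it is named as counts. The submitters' processing notes name fastp, kallisto and DESeq2 without versions. The genome build is not given in the sources used here, nor is the transcript set. Rows were joined to genes of EG11 by accession without version, which paired 31716 rows (61.6%) with 21914 genes. Groups follow the yield and population labels, which also pair the libraries by population.

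From the deposited TPM, log2(TPM + 1) was fitted with limma 3.58.1 in R 4.3.3 (statmod 1.5.0), for rows with at least 1 TPM in 3 libraries. Yield class and population were additive terms, the contrast was medium minus the mean of low and high, the prior variance was trended and robust, and 4 residual degrees of freedom remained. Two-sided p-values received Benjamini-Hochberg adjustment over all tested rows. An interaction could not be fitted with 1 library per combination, and differences that vary between populations are part of the spread. A count test had been planned only for a table of raw counts, and it was not run because the values are TPM. The pseudocount understates differences at low TPM. The script was tested on simulated data.

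Rows named had a mean of at least 5 TPM and medium above both or below both other classes in every population, and were the first 10 in each direction by p among paired rows and 2 among unpaired ones, plus the first 5 in each direction by size among paired rows without overlap, plus rows of genes with a name. The comparison, members, lists and rule were chosen with earlier results of these data known. Alternatives were another pseudocount, filter, scaling or prior, gene sums, a fit without population, and leaving out each library or population.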

Additional observations from a re-analysis of the deposited data

Results flagged for a closer look

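In 66 groups of 6 or 9 values, the highest or lowest library was checked for a gap to its neighbour that is large beside the range of the group, and 6 groups had one. For independent values from 1 normal distribution, chance gives such a gap in about 1 in 20 groups. The groups here share libraries, mix populations and include rows picked for their differences. That rate therefore need not hold for them, and the 6 groups are a description only. The medium SP540 library had 28320 rows at 1 TPM or more, while the other 8 libraries had 26390 to 27167. The same library had the highest median of the tested rows on the log2(TPM + 1) scale, at 2.9751 against 2.7392 to 2.842 in the others. Among the 6 low and high libraries, low LaMe had the lowest median, at 2.7392, with the rest between 2.8053 and 2.842. XM_010941715.3, which pairs with no gene, had 1.02 TPM in high Yangambi and was listed at 0 in the other low and high libraries. XM_029266328.1, also unpaired, had 8.14 TPM in high Yangambi and at most 2.67 TPM in the other low and high libraries. A row of the translation factor EF1, XM_010924230.3, had 111 TPM in low SP540 and 37.5 to 63.6 TPM in the rest of low and high.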

How the results depend on the processing

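Under all 24 alternatives 0 rows were called for medium in limma, with the lowest adjusted p at 0.0926 (a plain prior variance) and 0.126 without the low Yangambi library. Rows at an unadjusted p under 0.05 in limma numbered 1664 (3.67% of 45284) with no filter on low values and 483 (2.89% of 16699) at a mean of at least 5 TPM. With gene sums they numbered 841 (3.34% of 25145). The number of rows tested differed in these settings. Under the other alternatives they numbered 858 (2.81%) to 1354 (4.43%), beside 3.59% in the reported fit. The libraries are paired by population, and the fit without that block also called 0 rows, with 858 at an unadjusted p under 0.05. For low against medium and high, leaving out 1 library gave 0 to 1 rows called, the 1 being without low Yangambi. Rows with medium highest in every population numbered 661 at a mean of at least 5 TPM, 70 with a margin of 0.5, and 4016, 3620 and 3243 without LaMe, Yangambi and SP540. Those with medium lowest numbered 316, 33, 2219, 2073 and 2755 in that order, and 1087 after scaling to the same median. Dropping a population or raising the minimum changes the counts by construction. Of 744 values for the 31 named rows, none passed and 2 had the opposite sign, both when rows were summed per gene, XM_010944756.3 at 0.09 and XM_010915728.3 at -0.15. Of 593 values for the 25 rows of genes with a name, 90 had the opposite sign, and in 11 of these the shift from the reported value exceeded its standard error. MnSOD had 0.37 without medium SP540 or without SP540, DEF1 had 0.31, ADPRF -0.05, M39A 0.04 and AQP -0.15 without medium LaMe or without LaMe, and dxs (NM_001303573.1) had 0.47 summed per gene. The cause was not tested. The limits are 1 library per combination, unknown depth, models whose shared reads are divided by estimation, and unnamed genes.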

Other observations

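Some rows reached 1 TPM in the 3 medium libraries and in none of the other 6. There were 35 among the 30576 tested rows, and the same count was 20 for low, 18 for high, 76 for LaMe, 44 for Yangambi and 56 for SP540. Such rows passed the minimum through those libraries alone, so their number is a description. The 35 were rows of low level, with a median row mean of 1.88 TPM over the medium libraries and 1 row at 5 TPM or more. Of them 8 were listed at 0 in all 6 low and high libraries, and 8 (22.9%) were non-coding models. Non-coding models made up 11.63% of all tested rows. Among such rows of the other groups their share ran from 13.6% for Yangambi to 35.0% for low, with 27.8% for high. A share above that of all rows was therefore not particular to medium. The next examples were chosen after their values were seen. LOC114914170 (XR_003800790.1), a non-coding model, had 3.35, 3.82 and 2.78 TPM in medium and was listed at 0 in the other 6 libraries. LOC114913039 (XR_003799064.1), also non-coding, had 3.09, 3.48 and 2.54 TPM in medium and was likewise listed at 0 elsewhere. LOC105033849 (XM_019846788.2) had 2.19, 6.64 and 6.89 TPM in medium and at most 5.49e-05 TPM elsewhere. In the opposite direction, 12 of the 30576 rows were under 1 TPM in the medium libraries alone, with 20 for low and 23 for high.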
